A study of Arabidopsis thaliana with 12 samples.

Results

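COR15A, COR15B, COR47 and LTI30 are 4 cold-regulated genes of Arabidopsis thaliana, and their leaf transcripts are described here in a chloroplast mutant, cs26, and in wild type under different day lengths. The members were chosen by name: the probe sets 263497_at (COR15A, locus AT2G42540), 263495_at (COR15B, AT2G42530), 259570_at (COR47, AT1G20440) and 252102_at (LTI30, AT3G50970), which are 4 of the 22746 non-control probe sets on the array. Each gene has 1 probe set that names it alone, and all 4 were tested without a filter on brightness. The genes were chosen with earlier results of these data known. Their positions and shares among all probe sets therefore describe them and are not independent support.

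The 12 arrays fall into 4 groups of 3: cs26 in long days, wild type in long days, cs26 in short days and wild type in short days. The mutant is a single insertion line (SALK_034133) of the locus for S-sulfocysteine synthase, an enzyme of the chloroplast, and the wild type is accession Col-0. Long-day plants had 16 h of light and 8 h of dark and were 3 weeks old, and short-day plants had 8 h of light and 16 h of dark and were 5 weeks old, so day length and age cannot be told apart. All groups grew on soil at 20 °C by day and 18 °C by night, and no group was treated with cold. CS26 itself was not analysed here, so the labels were not checked by its level. The sources used here do not give the number of plants per array or the hour at which leaves were taken. In total leaf RNA, a lower value can stand for fewer cells of a type or for less RNA per cell, and these cannot be told apart.

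In Arabidopsis, low temperature raises the CBF (DREB1) transcription factors, which bind a short element in the promoters of cold-regulated genes. Drought and abscisic acid act on many of the same genes through other factors, and the clock and day length act on the CBF genes even in plants kept warm. COR15A and COR15B encode closely related small proteins of the chloroplast stroma that are known to protect chloroplast membranes during freezing. COR47 is an acidic dehydrin and LTI30, also called XERO2, is a basic one. Dehydrins are hydrophilic proteins that accumulate under cold and water loss, and LTI30 is known to bind membranes.

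In long days all 4 genes were lower in cs26 than in wild type, the COR15 genes by far the most. In short days the COR15 genes were modestly higher in cs26, LTI30 was lower, and COR47 showed no call. Values throughout are log2 expression values made by the authors with RMA, a method that corrects background, equalises the arrays and joins the probes of a probe set, so a difference of 1 is a doubling. A probe set was called where limma, a linear model fitted over all probe sets and all 12 arrays, gave a p-value adjusted by Benjamini-Hochberg under 0.05. Errors of differences are the model's standard errors (SE), and every adjusted p below is from limma. One array stood apart in a control: replicate 2 of wild type in long days read 9.64 for large-subunit ribosomal RNA, against 4.53 to 5.12 on the other 11 arrays.

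COR15A read 6.65, 7.36 and 6.73 on the cs26 long-day arrays, against 12.31, 12.32 and 12.32 on the wild-type long-day arrays. In short days it read 11.58, 11.1 and 11.41 in cs26, against 10.77, 10.23 and 10.7 in wild type. The cs26 long-day arrays stood far below the other 9, and no groups overlapped in either photoperiod.

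COR15B read 7.21, 7.21 and 7.25 in cs26 in long days, against 12.21, 11.97 and 12.18 in wild type. In short days it read 9.57, 9.42 and 9.67 in cs26, against 8.56, 8.74 and 8.43 in wild type. Its order over the groups was that of COR15A, but its short-day values lay nearer to the cs26 long-day values than to the wild-type long-day values.

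COR47 read 8.69, 8.41 and 8.58 in cs26 in long days, against 10.87, 11 and 10.79 in wild type. In short days it read 9.73, 9.61 and 9.87 in cs26, against 9.85, 9.54 and 9.81 in wild type. The short-day genotypes overlapped and lay between the long-day genotypes.

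LTI30 was the dimmest of the 4 and read 5.18, 5.1 and 5.51 in cs26 in long days, against 6.25, 6.18 and 6.21 in wild type. In short days it read 6.11, 5.5 and 6.19 in cs26, against 6.79, 6.91 and 6.43 in wild type. The cs26 arrays lay below the wild-type arrays of the same photoperiod without overlap, and replicate 2 of cs26 in short days was the lowest short-day value.

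**Figure D1:**
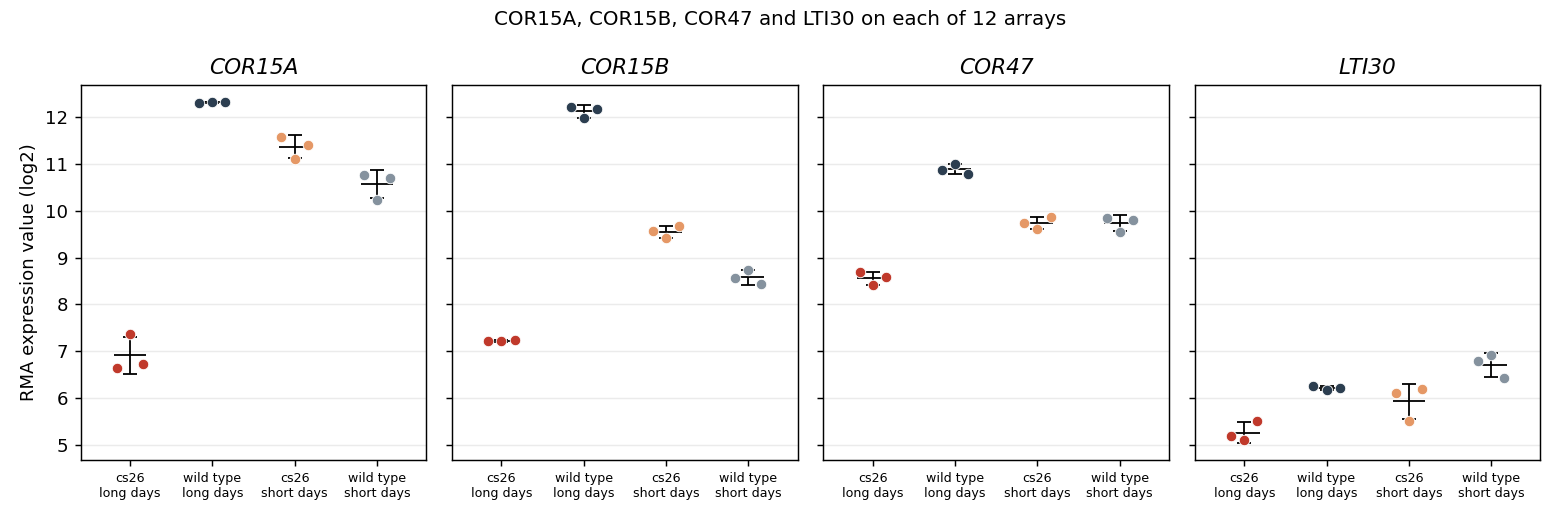
RMA expression values (log2, vertical axis) of the 4 genes on each array, by genotype and photoperiod; points are arrays, and the bar and whiskers are the mean and SD of 3 arrays. COR15A averaged 6.91 in cs26 and 12.32 in wild type in long days, and 11.36 in cs26 and 10.57 in wild type in short days.

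Ordered by mean, COR15A and COR15B were highest in wild type in long days, then in cs26 in short days, then in wild type in short days, and lowest in cs26 in long days. For both genes each group was separated from the next, with the narrowest gap between the short-day genotypes (0.33 for COR15A and 0.68 for COR15B). COR47 had the same highest and lowest groups, and its short-day groups between them did not differ beyond their spread. LTI30 was highest in wild type in short days, then in wild type in long days, then in cs26 in short days, and lowest in cs26 in long days. Its values in cs26 in short days overlapped with those of wild type in long days and, by 0.01, with those of cs26 in long days. The cs26 long-day arrays were below all other 9 arrays for 3 of the 4 genes, LTI30 being the exception. Over all probe sets this held for 6.89%.

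The long-day comparison asks which leaf transcripts differ between the mutant and wild type when days are long. COR15A fell by 5.40 ± 0.19 in cs26 (SE, n = 3 arrays per group), which is 42.3-fold, with a 95% interval of 31.8-fold to 56.3-fold (adjusted p = 8.23e-10). COR15B was 29.8-fold lower in cs26 (interval 25.6 to 34.7, adjusted p = 1.54e-11). Ranked by log2 difference, these were positions 1 and 2 from the lowest of all 22746 probe sets. The dehydrin COR47 averaged 8.56 ± 0.14 in cs26 and 10.89 ± 0.11 in wild type (SD), and was 5.02-fold lower in cs26 (interval 4.25 to 5.92, adjusted p = 1.02e-08, position 44 from the lowest). LTI30 fell by 0.95 ± 0.18 (1.93-fold, interval 1.48 to 2.52, adjusted p = 0.00142, position 653).

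All 4 members were called lower in cs26 in long days, where 11.8% of all probe sets were called lower. Their values did not overlap between the genotypes, as was so, in the same direction, for 19.4% of all probe sets. Their median difference was -3.61, against -0.01 over all probe sets. Since the members were chosen with earlier results of these data known, these shares, this median and the positions above are descriptions only. These calls held in all 19 alternative analyses, with adjusted p up to 0.00763 for LTI30. The alternatives are not independent checks: leaving out a short-day array cannot change a long-day difference, only its error and p-value. Without the wild-type array that was high in large-subunit ribosomal RNA, the long-day differences were -5.40 for COR15A, -4.97 for COR15B, -2.27 for COR47 and -0.97 for LTI30. With 3 arrays against 3, an exact two-sided permutation test of a single gene cannot go below p = 0.1, which is the value each of the 4 genes had.

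Other measures moved with genotype in long days. The Bacillus control transcripts on the arrays averaged 6.19 to 6.37 in cs26 and 6.68 to 6.81 in wild type, without overlap. Of the leaf markers listed, 2 of 12 had a probe set naming them alone: Rubisco activase RCA was bright in both genotypes (13.83 in cs26 and 13.77 in wild type), and the light-harvesting gene LHCB4.2 fell by 1.32. Their mean level ran from 12.17 to 12.32 in cs26 and from 12.84 to 12.92 in wild type. Of 17 markers of seed, root, vascular, epidermal and dividing cells, 6 were measured, and their mean level ran from 6.65 to 6.70 in cs26 and from 6.09 to 6.32 in wild type. PYK10, a beta-glucosidase typical of roots and seedlings, averaged 6.60 in cs26 and 3.91, close to the floor of the scale, in wild type. Its difference of 2.69 makes up most of that shift in mean level. The others of the 6 had differences from -0.48 to 0.38, in both directions. The stomatal lineage factor SPCH rose by 0.36, but averaged only 4.31 in cs26 and 3.95 in wild type, near the floor. TRY, a trichome repressor, fell by 0.48, and AUR1 of dividing cells, FAMA of stomata and the vascular SWEET11 were not called. The seed markers were not analysed here, and the part of any of these in the results was not tested.

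In short days the same comparison gave smaller differences, and not all in 1 direction. COR15B rose by 0.98 ± 0.10 in cs26, 1.97-fold (interval 1.69 to 2.29, adjusted p = 4.06e-05). COR15A was 1.74-fold higher in cs26 (interval 1.31 to 2.31, adjusted p = 0.0124), a call that was lost when replicate 2 of short-day wild type was left out (0.63, adjusted p = 0.0549) and at the stricter threshold of 0.01. LTI30 fell by 0.78 ± 0.18, 1.71-fold (interval 1.31 to 2.24, adjusted p = 0.00962). COR47 averaged 9.74 ± 0.13 in cs26 and 9.73 ± 0.17 in wild type (SD, n = 3 each), with a 95% interval of the log2 difference from -0.24 to 0.24 (adjusted p = 0.988).

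In short days 2 members were called higher and 1 lower, where 8.89% of all probe sets were called higher and 7.84% lower. The genotypes did not overlap for 3 of the 4 genes, against 29.8% of all probe sets. The median of the 4 differences was 0.40, against 0 over all probe sets. LTI30 was therefore lower in cs26 in both photoperiods, whereas the COR15 genes turned their direction with day length. That opposite pattern, called in both, was seen in 2.50% of all probe sets, and the pattern of LTI30, called lower in both, in 0.637%. Replicate 2 of cs26 in short days, the array that varied most around its group (SD of its deviations 0.208; the other arrays had 0.104 to 0.155), held the lowest of the 3 short-day cs26 values for each of the 4 genes. Without it the short-day differences were 0.93 for COR15A, 1.04 for COR15B and -0.56 for LTI30, all called, and 0.067 for COR47, not called. Bacillus controls overlapped in short days (5.43 to 5.93 in cs26 and 5.45 to 5.50 in wild type), PYK10 was near the floor in both genotypes (3.94 in cs26 and 3.95 in wild type), and of the 6 other-tissue markers only TRY was called (0.97 higher in cs26).

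**Figure D2:**
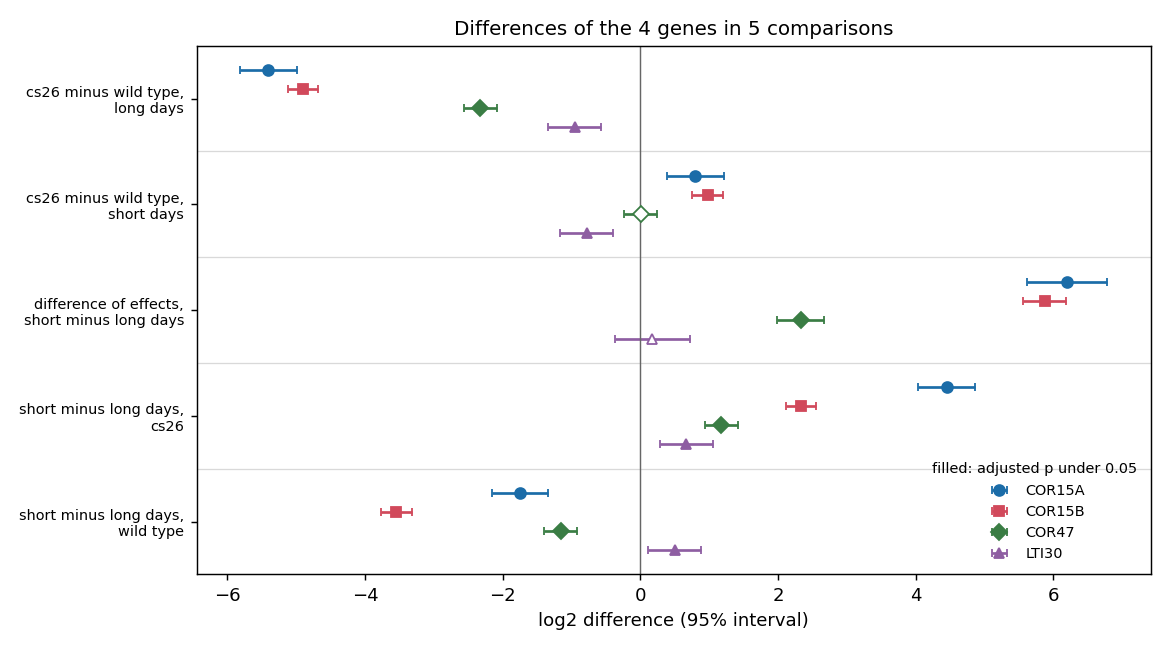
Log2 differences (horizontal axis) of the 4 genes in 5 comparisons, with 95% intervals from limma; filled symbols had an adjusted p under 0.05. The open symbols are COR47 in short days (0.00) and LTI30 in the difference of effects (0.17).

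The difference of the cs26 effects, short days minus long days, was called for 3 of the 4 genes, all positive. It was 6.20 ± 0.27 for COR15A (adjusted p = 4.48e-09) and 5.87 ± 0.14 for COR15B (adjusted p = 3.64e-11), positions 1 and 2 from the highest of all probe sets, and 2.33 ± 0.16 for COR47 (adjusted p = 2.48e-07, position 88). Of all probe sets, 14.8% were called in that direction. For LTI30 it was 0.17 ± 0.25 with a 95% interval from -0.37 to 0.72 (adjusted p = 0.686), so the mutant's effect on LTI30 was not shown to differ between photoperiods. The interval lies below the differences of effects of the other members.

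**Figure D3:**
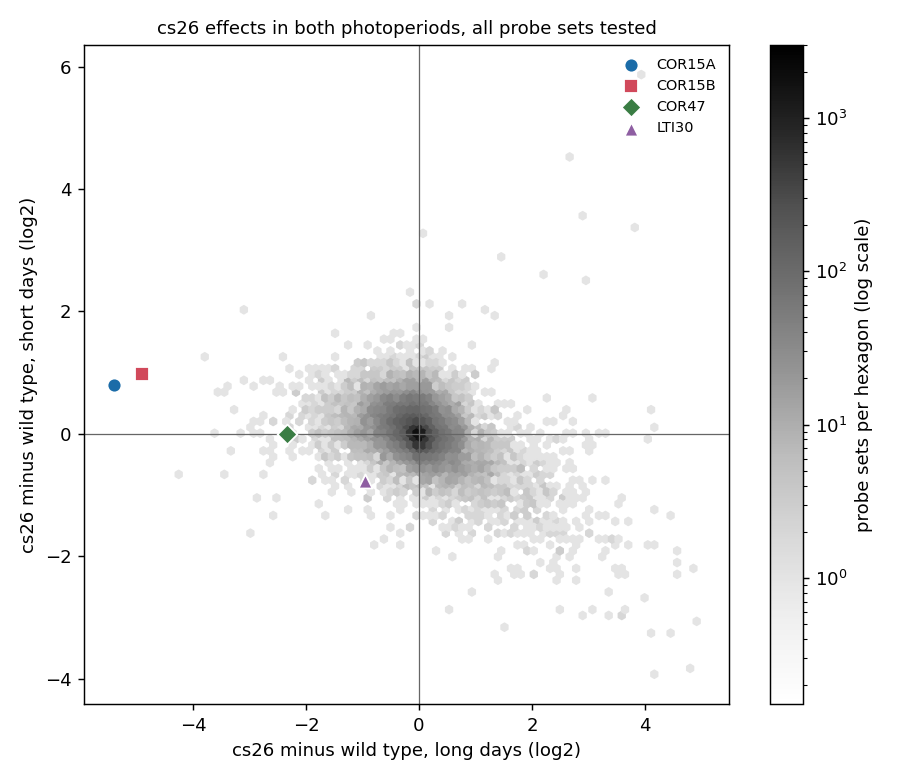
The cs26 minus wild-type difference (log2) in long days (horizontal axis) against that in short days (vertical axis); grey hexagons count all 22746 probe sets and coloured symbols are the 4 genes. COR15A (-5.40 and 0.80) and COR15B (-4.90 and 0.98) lie at the far left, above the horizontal zero line, and LTI30 (-0.95 and -0.78) lies below it.

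Short days against long days were compared within each genotype. These comparisons use the same arrays as the genotype comparisons, so their values stand beside those above and add no independent support. In wild type, the COR15 genes and COR47 were lower in short days: COR15B by the most, 11.7-fold (interval 10.02 to 13.6, adjusted p = 4.22e-11). COR15A was 3.36-fold lower (interval 2.53 to 4.48, adjusted p = 9.56e-06), and COR47 was 2.22-fold lower (interval 1.88 to 2.63, adjusted p = 3.05e-06). LTI30 was higher in short days by 0.50 ± 0.18 (adjusted p = 0.0371). That LTI30 call was lost at the threshold of 0.01 and without any of 5 arrays left out singly, namely each of the 3 long-day wild-type arrays and replicates 1 and 2 of wild type in short days (adjusted p from 0.0737 to 0.135). Without the array that was high in large-subunit ribosomal RNA, which is one of these, the wild-type differences were -1.75 for COR15A, -3.62 for COR15B and -1.10 for COR47, all called, and 0.48 for LTI30 (adjusted p = 0.0879).

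In wild type 3 members were therefore called lower and 1 higher, where 23.0% of all probe sets were called lower and 21.8% higher. In cs26 all 4 genes were called higher in short days, where 21.5% of all probe sets were. COR15A rose by 4.45 ± 0.19 (21.9-fold, interval 16.4 to 29.1, adjusted p = 1.61e-09), and was position 19 from the highest. COR15B was 5.03-fold higher (adjusted p = 1.84e-09) and COR47 2.26-fold higher (adjusted p = 2.23e-06). LTI30 was 1.59-fold higher (interval 1.22 to 2.08, adjusted p = 0.00804), although its short-day and long-day values in cs26 overlapped by 0.01.

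Signs of RNA and array quality moved with photoperiod. The 3′ minus 5′ signal of the actin control transcripts was 1.86 to 2.48 in short days and 0.92 to 1.31 in long days, and Bacillus controls were 5.43 to 5.93 in short days and 6.19 to 6.81 in long days. Clock-linked genes moved as well: GI, a clock gene that times flowering, fell by 2.61 in short days in wild type and by 1.04 in cs26, and COR27, a cold-regulated clock component, fell by 4.80 in wild type and fell by 4.89 in cs26. Of the leaf markers, LHCB4.2 was higher in short days, by 1.25 in wild type and by 2.50 in cs26, and RCA was not called. Of the 6 other-tissue markers, 1 was called higher and 2 lower in short days in wild type, and 1 higher and 4 lower in cs26 (of all probe sets, 21.8% were higher and 23.0% lower in wild type, and 21.5% and 21.8% in cs26). The part of all these measures in the photoperiod differences of the 4 genes was not tested. Between genotypes COR27 was not called in long days (0.06, adjusted p = 0.768) or in short days (-0.03), whereas GI fell by 1.05 in cs26 in long days (adjusted p = 0.00392) and measured 0.52 in short days (adjusted p = 0.144).

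The members also differed from each other in how far they changed. The log2 difference between 2 genes was taken on each array and its group means compared, over 6 pairs of genes and 4 comparisons between groups. Between the genotype effects of COR15A and COR15B the difference of changes was -0.51 ± 0.24 in long days and -0.18 ± 0.27 in short days (SE of the difference of means, n = 3 arrays per group). Their array values overlapped between genotypes in both, and exact two-sided permutation p was 0.3 and 0.5. They separated with photoperiod. COR15B changed more than COR15A in wild type and less in cs26, with a difference of changes of 1.79 ± 0.26 in wild type and 2.12 ± 0.25 in cs26, without overlap (exact permutation p = 0.1 in both, the smallest that 3 against 3 arrays allow). For COR47 and LTI30, both dehydrins, the difference of changes was -1.38 ± 0.15 between genotypes in long days and -1.65 ± 0.23 between photoperiods in wild type. It was smaller and of the other sign between genotypes in short days (0.78 ± 0.27) and between photoperiods in cs26 (0.51 ± 0.20). Array values did not overlap in 22 of the 24 comparisons of a pair, so a lack of overlap did not set this pair apart. No share over other pairs of probe sets was computed, so that count is a description only. By mean over all arrays, LTI30 (6.03) lay at percentile 56.8 of all probe sets, and COR15A, COR15B and COR47 at percentiles 96.1, 92.4 and 94.2.

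Replicate spread was not alike for the 4 genes. The residual SD was 0.12 for COR15B and 0.14 for COR47, close to the median of all probe sets (0.14), and 0.27 for COR15A and 0.25 for LTI30. Over the 12 arrays COR15A spanned 5.67 and COR15B 5 log2 units, and by SD over all arrays they were positions 41 and 96 from the most variable of all probe sets.

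Other genes of cold and drought response, and clock genes, were taken from lists by name. A list of 89 genes of cold effectors, cold regulators, abscisic acid and clock had 4 members with a probe set naming them alone, and of 181 further genes named in the gene table for cold, drought, dehydrins, late embryogenesis abundant (LEA) proteins or abscisic acid, 12 had such a probe set. Together these were 14 genes, since HIRD11 and LEA4-5 are in both. The CBF genes, RD29A, ERD10, RAB18 and the abscisic acid list were not analysed here. In long days, 4 of the 14 were called higher in cs26 and 3 lower (12.8% and 11.8% of all probe sets), with a median of -0.03. From the list of 89, 1 was higher and 2 lower, and from the name-based list 3 were higher and 2 lower.

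HIRD11, a small metal-binding dehydrin, averaged 11.86 ± 0.18 in cs26 and 12.72 ± 0.08 in wild type in long days (SD, n = 3 each), and fell by 0.86 (adjusted p = 0.000455). The LEA gene AT2G44060 fell by 0.65 and GI, above, was the other fall. The largest rise was that of STZ (ZAT10), a zinc finger repressor induced by cold and other stress, at 3.06. SRC2, a membrane-associated protein named for cold regulation, rose by 0.63, the drought-induced DI21 by 0.62 and the LEA gene AT2G46140 by 0.70. The dehydrin gene named LEA (AT2G21490), LEA18 and AtLEA4-1 averaged between 3.97 and 4.40 in all groups, near the floor, and were not called between genotypes. DOR, from the name-based list, averaged between 3.93 and 4.03, also near the floor, and was not called between genotypes either.

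In short days 0 of the 14 were called higher in cs26 by limma and 4 lower (5 had an unadjusted p under 0.05), where 8.89% and 7.84% of all probe sets were, with a median of -0.05. By list these were 1 of the 4 genes and 3 of the 12. STZ fell by 0.80, DI21 by 0.80, AT2G46140 by 0.74 and SRC2 by 0.51. Of the 3 calls from the name-based list, 1 was left at the threshold of 0.01, where AT2G46140 (adjusted p = 0.0123) and SRC2 (adjusted p = 0.0208) were lost, and 1 with only the short-day arrays in the fit. Without replicate 1 of cs26 in short days, 2 of the 4 genes of the list of 89 were called. The 4 genes called lower in short days, STZ, DI21, AT2G46140 and SRC2, were also the 4 that had risen in long days. Their difference of effects was called for each (from -3.86 for STZ to -1.14 for SRC2). It combines the same opposite changes and adds no separate support. The difference of effects was positive, as for the COR15 genes, for HIRD11 (0.77, adjusted p = 0.00992), GI (1.57) and AT2G44060 (0.67). In all, 3 of the 14 were called positive and 4 negative (14.8% and 12.7% of all probe sets). HIRD11 thus had a long-day fall and no short-day call (-0.09, adjusted p = 0.748), as COR47 did.

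Between photoperiods, 2 of the 14 were called higher and 7 lower in short days in wild type (median -0.28), where 21.8% and 23.0% of all probe sets were. In cs26, 3 were higher and 6 lower (median -0.19), where 21.5% and 21.8% of all probe sets were. By list, wild type had 1 higher and 3 lower of the 4 genes and 1 higher and 6 lower of the 12, and cs26 had 1 higher and 1 lower of the 4 and 2 higher and 5 lower of the 12. STZ was higher in short days in wild type, by 4.47, and so was SRC2, by 1.51. LEA4-5, a LEA protein gene, fell by 0.80 in wild type (adjusted p = 0.00309) and measured -0.21 in cs26 (adjusted p = 0.38).

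**Figure D4:**
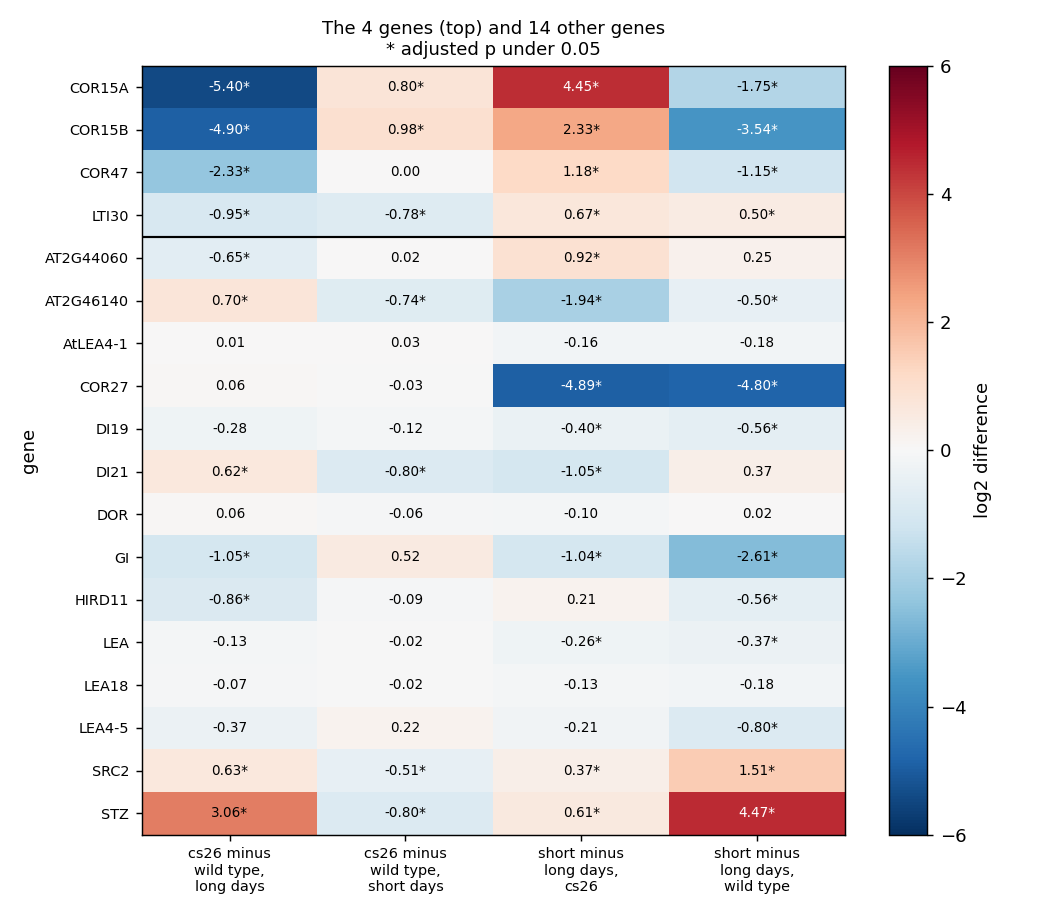
Log2 differences of the 4 genes (top rows) and of 14 other genes in 4 comparisons (columns). The 14 are from the lists for cold and drought response, except the clock gene GI. Red is higher and blue lower in the group named first in the column, and an asterisk marks an adjusted p under 0.05. COR15A and COR15B have the deepest blue in long days, where STZ is at 3.06.

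The chromosomal neighbours of the members were listed in the TAIR10.1 gene table, used only for names and gene order. COR15A and COR15B lie next to each other with no gene between them. ERD10, next to COR47, and XERO1, next to LTI30, are further dehydrin genes and were not analysed here. Of the 12 nearest other genes with a probe set of their own, 2 were called higher and 1 lower in cs26 in long days, from -0.42 to 0.87 (12.8% and 11.8% of all probe sets were). AT2G42520, whose gene model overlaps that of COR15B, measured 0.15 (adjusted p = 0.503). On the other side of the COR15 genes AT2G42560 measured -0.09 (adjusted p = 0.579) and TBL39 rose by 0.87. In short days 1 of the 12 was higher and 2 were lower in cs26, from -0.53 to 0.43 (8.89% and 7.84% of all probe sets were). The 1 higher was AT2G42520 (0.43, adjusted p = 0.0376), where COR15B was higher too. Between photoperiods, 2 of the 12 were called higher and 4 lower in short days, in wild type and in cs26 alike. Of all probe sets, 21.8% were higher and 23.0% lower in wild type, and 21.5% and 21.8% in cs26. AT2G42520 was called lower in both, at -1.06 in wild type, where COR15B was also lower, and -0.78 in cs26, where COR15B was higher.

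Named probe sets with the most similar profile were found by root mean square distance over the 12 arrays, each probe set having its own mean subtracted, among 13512 others that name 1 gene. Arrays of a group share their condition, so a short distance mainly means similar group means. COR47 had close companions: scpl20, a serine carboxypeptidase-like gene, at 0.18 log2 units, AT1G22160 at 0.22 and AT3G20300 at 0.25. The genes nearest to LTI30 were AT5G03120 (0.19), AT1G56700 (0.22) and AT3G47590 (0.23). In these units COR15A and COR15B had no equally close one. The distance was not scaled to a gene's own spread, so genes that vary more tend to lie farther from others. The SD over all arrays was 2.15 for COR15A and 1.87 for COR15B, against 0.87 for COR47 and 0.59 for LTI30. TBL26, of a family that acetylates cell wall polymers, was nearest to COR15A at 0.69, then AT1G78070 (0.81) and the sugar transporter gene SWEET13 (0.88). AT1G80130 was nearest to COR15B at 0.70, then AT1G15410 and AT1G51090 (both 0.82). COR15A and COR15B were 1.03 apart, which is farther than each was from these genes.

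Group means are given for the nearest gene of each member. TBL26 averaged 6.87 in cs26 and 10.45 in wild type in long days, and 10.20 in cs26 and 9.48 in wild type in short days. AT1G80130 averaged 6.48 in cs26 and 10.06 in wild type in long days, and 8.47 in cs26 and 8.43 in wild type in short days. scpl20 averaged 6.02 in cs26 and 8.32 in wild type in long days, with 7.39 in cs26 and 7.15 in wild type in short days. AT5G03120, like LTI30, was lower in cs26 in both photoperiods, with 6.70 in cs26 and 7.59 in wild type in long days, and 7.09 in cs26 and 8.08 in wild type in short days.

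**Figure D5:**
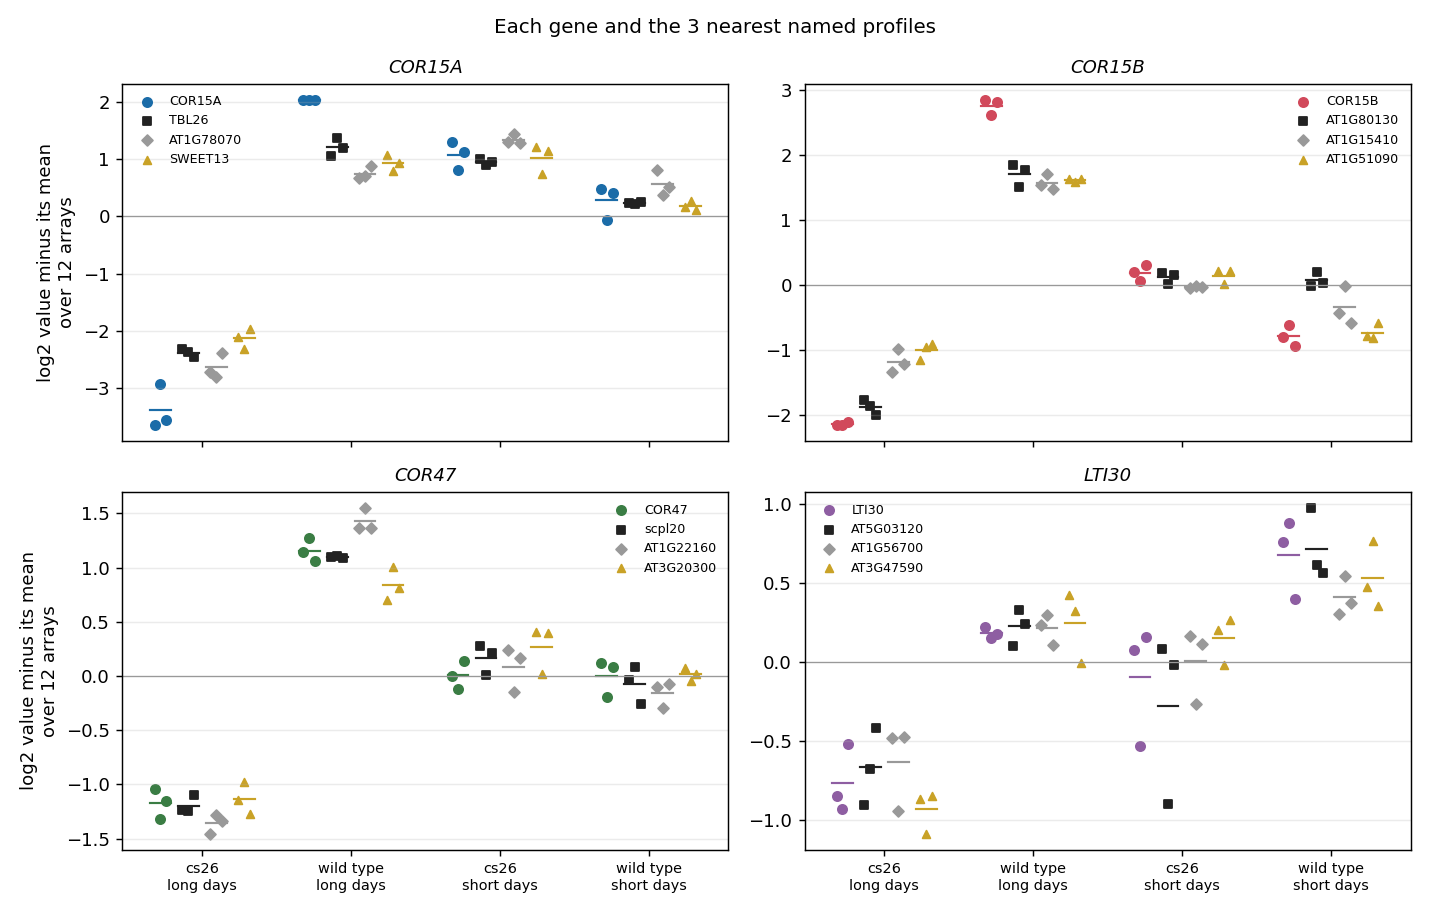
Log2 values minus each probe set's mean over 12 arrays (vertical axis) for each of the 4 genes and its 3 nearest named profiles, by group; points are arrays and short lines are group means. The COR47 panel shows the tightest match (scpl20, distance 0.18), and COR15A in long days reaches farther in both directions than TBL26, AT1G78070 and SWEET13.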

How the data were processed

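Leaf RNA of 12 samples was measured on Affymetrix ATH1 arrays, with a separate array for each sample, per the labels' protocols. The authors deposited log2 expression values, and the submitters' processing notes name RMA and the affy package. The sources used here do not give versions, or say whether all arrays were normalised together. The table holds 22810 probe sets, and 64 control probe sets were left out of the tests. Values run from 3.12 to 14.27 with array medians from 5.42 to 5.51, and the number of arrays limits the precision. No array duplicates another. The design text calls the replicates biological.

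Probe sets were named through the platform annotation (13513 name 1 gene, 503 several, 8730 none), with symbols updated from the TAIR10.1 gene table. A model with a mean per group was fitted to all 12 arrays in limma 3.58.1 (R 4.3.3; 8 residual and 4.32 prior degrees of freedom), and tested on simulated data. Benjamini-Hochberg adjustment ran over all 22746 probe sets. Named genes were the 4 members, listed genes, the 3 nearest profiles per member and the 2 nearest measured genes on either side of each. The members and lists were chosen with earlier results of these data known, and the name-based list was added after gaps in the annotation were seen, as was the comparison of changes between members. Alternatives were quantile normalisation, dim probe sets left out, array weights, a trended robust prior, only the arrays compared, a replicate block, a threshold of 0.01, and each array left out. No sequences were used here.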

Additional observations from a re-analysis of the deposited data

Results flagged for a closer look

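The effect of cs26 differed between short days and long days for 3 of the 4 genes, by the test of the difference of effects in limma (n = 3 arrays in each of 4 groups). It was 6.20 ± 0.27 (log2, SE, adjusted p = 4.48e-09) for COR15A and 5.87 ± 0.14 (adjusted p = 3.64e-11) for COR15B, both called lower in the long-day mutant and higher in the short-day mutant. It was 2.33 ± 0.16 (adjusted p = 2.48e-07) for COR47, called lower in long days and not called in short days. With each array left out in turn it ran from 6.03 to 6.42 for COR15A, from 5.80 to 5.96 for COR15B and from 2.23 to 2.40 for COR47.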

How the results depend on the processing

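Each of the 20 differences of the 4 genes was recomputed under 18 or 19 alternatives, and 365 of 376 values kept their direction and their side of the threshold. The alternatives are not independent of each other, and leaving out an array outside a comparison cannot change its difference. At an adjusted p under 0.01, the short-day difference of COR15A (0.80) and the wild-type photoperiod difference of LTI30 (0.50) were no longer called. With each array left out in turn, the short-day difference of COR15A ran from 0.63 to 0.93, the wild-type photoperiod difference of LTI30 from 0.40 to 0.64, and the short-day difference of COR47 from -0.093 to 0.067. The last was never called and turned its sign without replicate 2 of wild type (-0.093) or replicate 3 of cs26 (-0.063). The cause of these was not tested.

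With the replicate number as a block, the LTI30 photoperiod difference in wild type (0.50) had an adjusted p of 0.0514, and no other call of the 4 genes changed. Same-numbered arrays share only a number: the correlation of their deviations ran from -0.31 to 0.16, was over 0.1 in 2 of 18 pairings, and was best with the own number in 1.

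At 0.01, 1987 probe sets were called between genotypes in short days, against 3806, and 4057 for the difference of effects, against 6268. Of the 12 name-based genes, 1 was called in short days at 0.01 and also with only the arrays compared, and 4 between photoperiods in cs26 at 0.01. Of the 4 listed genes, the number called in short days ran from 1 to 2 with each array left out. LEA, LEA18, AtLEA4-1 and DOR lay near the floor of the scale, which limits what can be seen for them.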
